A study of Mus musculus with 6 samples.

Results

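The transcripts of anti-Müllerian hormone (AMH), of the inhibin and activin subunits and of their receptors were examined in whole mouse testes at E12.5. The group was defined by gene symbol and comprised 10 genes, the ligand genes Amh, Inha, Inhba and Inhbb and the receptor genes Amhr2, Acvr1, Acvr1b, Acvr2a, Acvr2b and Tgfbr3, out of 24470 rows in the count table. All 10 passed the filter on low counts, as did 15577 genes in total. RNA-seq had been performed on 3 control samples, with the genotype Ppp1r3c f/f, and 3 conditional knockout (cKO) samples, with the genotype Sf1-Cre Ppp1r3c f/f, so all embryos carried floxed Ppp1r3c alleles. Both mouse lines were kept on a C57BL/6 background. Cre expression was driven by Nr5a1 (Sf1) sequences, which are used by somatic gonad cells, and the product of Ppp1r3c directs a phosphatase to glycogen and favours its build-up. For each sample, 2 pairs of gonads had been combined, and embryos were not labelled individually. The study concerned glycogen in fetal Sertoli cells, the supporting cells of the testis, and the comparison asks how the transcripts of this signalling group stood after loss of Ppp1r3c.

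AMH and the inhibins and activins are secreted dimers of the TGF-beta family. AMH is made by Sertoli cells, binds the type II receptor AMHR2, which recruits type I receptors such as ACVR1 and BMPR1A, and causes the Müllerian ducts of the male embryo to regress. Activins are dimers of the beta subunits encoded by Inhba and Inhbb, and signal through the type II receptors ACVR2A and ACVR2B and the type I receptor ACVR1B to SMAD2 and SMAD3. Inhibins pair a beta subunit with the alpha subunit encoded by Inha, and they block activin by occupying its type II receptors together with the co-receptor betaglycan, encoded by Tgfbr3. In the fetal testis Inhbb is known from Sertoli cells and Inhba from fetal Leydig cells.

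The promoters of the 3 genes with the lowest p in the comparison below, Amhr2, Inhbb and Acvr1, are shown to place the genes on the genome. Windows of 300 bases, 250 before and 50 after a start of transcription, were taken as promoters. The window of Inha lies inside the gene. From RefSeq (GRCm38.p6) such windows were available for 8 of the 10 genes. They are written 5′ to 3′ on the strand of the gene, at chr15:102445117-102445416 (plus strand) for Amhr2, chr1:119422199-119422498 (minus strand) for Inhbb and chr2:58566779-58567078 (minus strand) for Acvr1. Capitals mark the motif AAGGTCA, which the nuclear receptor NR5A1 is known to recognise.
Amhr2: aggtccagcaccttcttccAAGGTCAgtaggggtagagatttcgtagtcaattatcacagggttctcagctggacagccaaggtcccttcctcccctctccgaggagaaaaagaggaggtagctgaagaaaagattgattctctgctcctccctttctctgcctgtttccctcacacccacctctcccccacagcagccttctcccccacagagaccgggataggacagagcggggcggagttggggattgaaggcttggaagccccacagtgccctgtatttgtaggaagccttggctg
Inhbb: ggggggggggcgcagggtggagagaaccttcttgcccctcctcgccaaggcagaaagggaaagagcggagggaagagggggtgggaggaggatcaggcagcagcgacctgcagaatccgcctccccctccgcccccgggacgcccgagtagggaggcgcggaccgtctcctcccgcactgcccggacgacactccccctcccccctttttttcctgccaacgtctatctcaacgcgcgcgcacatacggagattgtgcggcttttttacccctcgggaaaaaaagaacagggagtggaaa
Acvr1: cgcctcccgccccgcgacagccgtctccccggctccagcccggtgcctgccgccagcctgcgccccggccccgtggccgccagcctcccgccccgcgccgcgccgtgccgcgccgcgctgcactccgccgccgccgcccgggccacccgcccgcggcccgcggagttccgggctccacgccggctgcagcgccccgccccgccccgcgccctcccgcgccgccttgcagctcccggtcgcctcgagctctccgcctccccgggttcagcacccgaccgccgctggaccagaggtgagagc

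The motif AAGGTCA, searched on both strands, was found in 1 of the 8 windows, that of Amhr2, where it begins 231 bases before the start of transcription. It was present in 4.72% of all 32851 windows of this length. The SOX motif ACAAT was found once in each of the windows of Inhba, Inhbb and Acvr2a, and in 31.0% of all windows. GC content was 55.3% for Amhr2, 64.3% for Inhbb and 83.7% for Acvr1, against a median of 52.7% over all windows. The windows of the receptor genes Acvr1, Acvr1b, Acvr2a and Acvr2b held between 27 and 54 CpG dinucleotides each. Those of Amhr2, Inha and Inhba held 5, 5 and 7, and that of Inhbb held 23. The windows of Inhba and Acvr1b start from another transcript than the coordinates in the count table. That of Inha starts 532 bases past the start of the gene in the count table. Its bases after this start were held by 0 transcripts, so it does not describe the promoter of Inha. These matches describe letters and not binding.

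Before the comparison, the libraries were checked, with levels given as CPM, the library-scaled read count. Total counts ranged from 16139487 counts in control replicate 1 to 44145158 in control replicate 2, and the other 4 libraries held at least 33435079. The targeted gene Ppp1r3c had a mean (± SD, n = 3 each) of 23.1 ± 1.19 CPM in control samples, against 5.34 ± 0.624 CPM in cKO samples, with no overlap. One library stood apart: cKO replicate 3 held 379 CPM of Xist, the transcript of the inactive X chromosome of XX cells, while the other 5 libraries held 0.369 to 1.0001 CPM. In this library the summed level of 6 pre-granulosa markers was 268 CPM, against 82.8 to 100.2 CPM in the other 5. The 10 Sertoli markers included no gene of this group. They summed to 953 to 1116 CPM in control and 855 to 1100 CPM in cKO. The defining markers of the labelled tissue were thus present in each library, but cKO replicate 3, at 855 CPM, was below all control libraries. The 6 germ cell markers summed to 394 to 641 CPM in control and 178 to 400.2 CPM in cKO. For the 5 fetal Leydig markers the sums were 238 to 435 and 162 to 369 CPM, the lowest again in cKO replicate 3. The 6 interstitial markers summed to 1317 to 1544 and 1343 to 1529 CPM. The 5 endothelial markers summed to 523 to 579 and 514 to 590.01 CPM, and the 7 mesonephros and duct markers to 19.5 to 26.9 and 16.9 to 27.3 CPM. This last sum joins opposite directions, as 5 of the 7 markers had a higher mean in cKO. Pax8 was at 8.35 to 10.1 CPM in control and 10.8 to 16.4 CPM in cKO. Lhx1, with a lower mean in cKO, was at 8.37 to 16.4 and 3.81 to 11.9 CPM. The 6 libraries stood in the same order for Lhx1 as for the germ cell sum, and the cells behind its level were not tested. No marker of these lists was at 0 in all 6 libraries. In whole testes, fewer cells of a type and less RNA per cell cannot be told apart.

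The ligands and receptors covered a wide range of levels per length. Levels per length (RPKM) are library-scaled CPM divided by the exon length in kilobases. Amh was the most abundant transcript, with 458 ± 79.0 RPKM (SD, n = 3) in control testes. Inha (64.8 ± 8.66), Amhr2 (63.2 ± 8.80) and Inhbb (55.5 ± 6.81 RPKM) followed, and these neighbours overlapped between control samples. The type II receptor gene Acvr2b was at 25.9 ± 1.43 RPKM, ahead of Tgfbr3 at 18.5 ± 1.30 and Acvr1 at 17.0 ± 0.0990 RPKM, and the last 2 overlapped. Acvr1b was at 9.64 ± 0.484 and Acvr2a at 7.98 ± 0.130 RPKM, without overlap. Inhba was lowest, at 3.58 ± 0.701 RPKM, and its value depended on the gene model, being 0.857 RPKM with the exons of all annotated transcripts. In cKO testes Amh was again first and Inhba last, whereas Amhr2 (79.9 ± 9.66 RPKM) had a higher mean than Inha (70.9 ± 11.3 RPKM) and overlapped with it. Acvr1, at 20.0 to 20.2 RPKM in cKO samples, stood above Tgfbr3, at 17.7 to 19.2 RPKM, without overlap. Their order in control was the opposite, with overlap. The order of these genes in cKO holds only for the lengths used here. With the exons of all annotated transcripts the control means were 11.6 RPKM for Acvr1 and 17.2 RPKM for Tgfbr3.

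**Figure D1:**
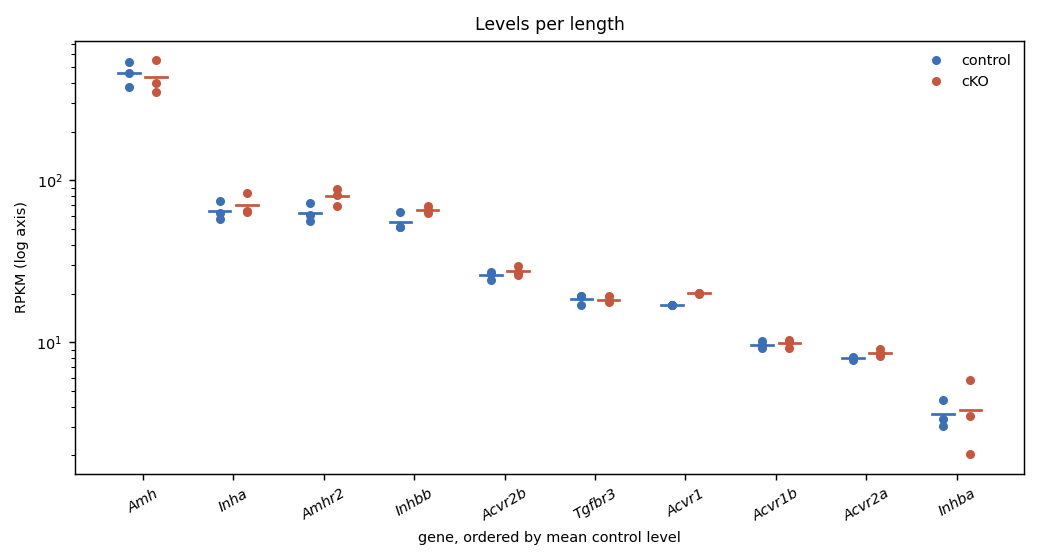
Levels per length (RPKM, log axis) of the 10 genes in 3 control and 3 cKO testis samples, ordered by the mean control level, with a point for each sample and a line at each group mean. Amh lies above all other genes and Inhba below them in control samples, and Inha, Amhr2 and Inhbb overlap.

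No gene of the group passed the test over all genes. edgeR called 0 of 10 higher and 0 of 10 lower at an FDR of 0.05, where 0.0321% of all tested genes were called higher and 0.00642% lower. DESeq2 also called 0, where it called 0.400% of its genes higher and 0.379% lower. Of the group limma-voom called 0, and of all 15577 tested genes it called 7. With no adjustment, 3 genes had a p under 0.05 by edgeR, all higher in cKO, against 5.56% of all tested genes higher and 5.80% lower. These were Acvr1, Amhr2 and Inhbb. The same 3 genes stood at this p by DESeq2, by limma-voom and without cKO replicate 3, with 3.54% of all tested genes higher and 4.29% lower in the last case, whereas Acvr1 and Amhr2 remained without control replicate 2 and Acvr1 alone, a count of 1, without control replicate 3. The groups did not overlap for 2 genes, Acvr1 and Acvr2a, both higher in cKO, where 8.42% of all tested genes were separated in this direction and 7.18% in the other. The log2 fold change was above 0 for 8 of 10 genes, with a median of 0.10, while 49.1% of all tested genes were above 0 and their median was -0.0034. This count was 10 of 10 without cKO replicate 3, where 48.7% of all tested genes were above 0. It was also 10 of 10 without control replicate 1, and 6 of 10 without control replicate 2. For the fits without a control replicate no share of all tested genes above 0 is given.

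**Figure D2:**
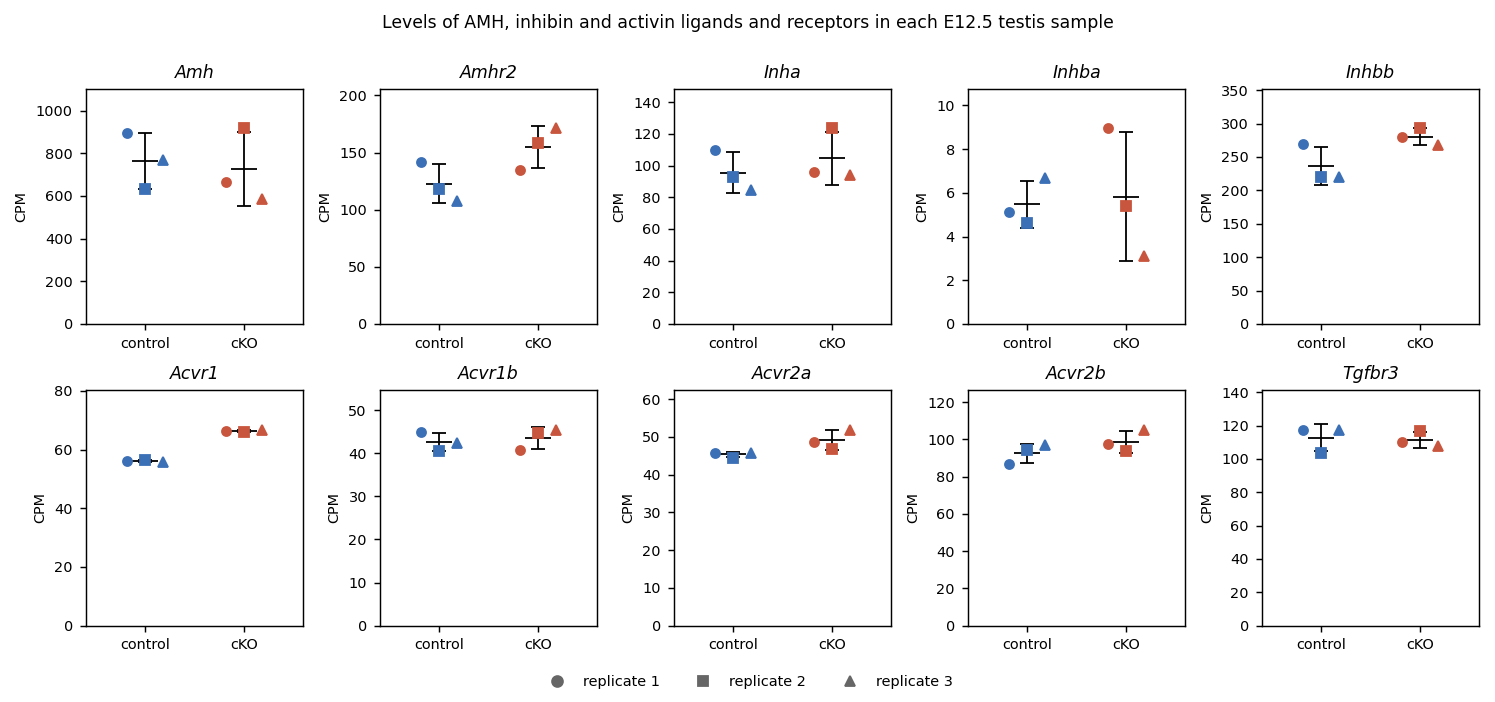
Levels in CPM (linear axes from 0) of the 10 genes in control (blue) and cKO (red) samples, with 1 symbol for each replicate number and black bars for the mean ± SD (n = 3). The groups are separate for Acvr1, between 55.8 and 56.4 CPM in control and between 65.9 and 66.8 CPM in cKO, and spread widely for Inhba in cKO.

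Among the ligands, Amh did not differ beyond the spread between samples. Its levels were 894, 631 and 771 CPM in control replicates 1 to 3 and 665, 919.8 and 588 CPM in cKO replicates 1 to 3. The highest sample and the lowest sample were both cKO. On the log2 scale cKO minus control was -0.078 (SE 0.166, 95% interval -0.45 to 0.29, edgeR FDR 0.889). Amh lies on chromosome 10 (80805248 to 80807648, plus strand). Without cKO replicate 3, which had the lowest level, this value was 0.052, and it was -0.29 when cKO replicate 2 was left out.

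Inhbb, the beta subunit of inhibin B and activin B, had a higher mean in cKO testes without passing the adjusted test. The control samples held 269.8, 219.8 and 219 CPM and the cKO samples 279.6, 294 and 268 CPM. Control replicate 1 lay just above cKO replicate 3, and the other control samples lay below all cKO samples. Mean levels (± SD, n = 3 each) were 236 ± 29.0 CPM in control samples and 280.5 ± 12.7 CPM in cKO samples. This corresponded to a log2 fold change of 0.25 (SE 0.0827, 95% interval 0.064 to 0.44, unadjusted p 0.0139, edgeR FDR 0.377). It was 0.28 without cKO replicate 3, and between 0.19 and 0.35 when each sample was left out in turn. Inhbb lies on chromosome 1 (119415465 to 119422248, minus strand), 43.9 Mb from Inha.

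Inha, the alpha subunit that turns a beta subunit into an inhibin, was at 109.7, 92.5 and 84.7 CPM in control and 95.9, 124 and 94.1 CPM in cKO samples. All but cKO replicate 2 lay within the control range. Its log2 fold change was 0.13 (SE 0.121, 95% interval -0.14 to 0.41, edgeR FDR 0.694), and it was -0.0038 without cKO replicate 2. Inha lies on chromosome 1 (75507077 to 75510354, plus strand).

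Inhba, the beta subunit of activin A, was the least abundant and the most variable ligand. Its counts were 83, 205 and 274 in control and 360, 194 and 103 in cKO libraries, or 5.11, 4.64 and 6.68 CPM and 8.97, 5.39 and 3.12 CPM. The highest and the lowest sample were both cKO. The coefficient of variation was 19.6% in control and 50.7% in cKO, while the counting error of a single library was 5.27% to 11.0%. Fitted over all samples, its log2 fold change was 0.091 (SE 0.328, 95% interval -0.65 to 0.83, edgeR FDR 0.936), which became 0.39 without cKO replicate 3. It was -0.37 when cKO replicate 1 was left out. The fetal Leydig markers summed to 238, 330.1 and 435 CPM in control and 280, 369 and 162 CPM in cKO samples. Both were lowest in cKO replicate 3, but cKO replicate 1, with the highest Inhba, had a lower marker sum than control replicates 2 and 3, and the part of these cells in the level of Inhba was not tested. Inhba lies on chromosome 13 (16014475 to 16027211, plus strand).

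Of the receptors, Acvr1 had the lowest p of the group. ACVR1 is a type I receptor for AMH and for bone morphogenetic proteins. Its levels were 56.2, 56.4 and 55.8 CPM in control and 66.2, 65.9 and 66.8 CPM in cKO samples. The groups were separate, with an exact permutation p of 0.1, the smallest that 3 samples against 3 allow. The mean was 18.1% higher in cKO, a log2 fold change of 0.24 (SE 0.0551, 95% interval 0.12 to 0.36, unadjusted p 0.00166, edgeR FDR 0.377). DESeq2 gave an FDR of 0.0575, and the FDR ranged up to 0.777 over the alternatives. Leaving out each sample in turn moved the log2 fold change between 0.23 and 0.24. The coefficients of variation, 0.582% in control and 0.667% in cKO, were smaller than the counting error of single libraries, 1.94% to 3.31%, so the samples lay closer together than counting error alone would place them.

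Acvr1 and Acvr2a both lie on chromosome 2, 9.54 Mb apart. Acvr1 runs from 58446438 to 58566828 (minus strand) and Acvr2a from 48814109 to 48903264 (plus strand). Acvr1c, a receptor gene outside the group that is described below, lies between them and closer to Acvr1 (58267453 to 58357758, minus strand). Acvr2a encodes a type II receptor of activins. It was at 45.7, 44.5 and 45.8 CPM in control and 48.6, 46.9 and 52.0 CPM in cKO samples, which did not overlap (exact permutation p 0.1). Its log2 fold change was 0.12 (SE 0.0636, 95% interval -0.026 to 0.26, edgeR FDR 0.510) and 0.076 without cKO replicate 3. On chromosome 2, 10.1% of 1232 tested genes were separated with higher cKO levels, against 8.27% of 14345 genes elsewhere.

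Amhr2, the type II receptor specific to AMH, had the largest log2 fold change of the 10 genes in the comparison of all 6 samples. The control samples held 141, 118 and 108 CPM and the cKO samples 135, 158 and 172 CPM. Control replicate 1 lay above cKO replicate 1, and otherwise the cKO samples were higher. Mean levels (± SD, n = 3 each) were 123 ± 17.1 CPM in control samples and 155 ± 18.7 CPM in cKO samples. Between the groups this gave a log2 fold change of 0.34 (SE 0.110, 95% interval 0.094 to 0.59, unadjusted p 0.0121, edgeR FDR 0.377). The highest level was that of cKO replicate 3, which carries Xist and the pre-granulosa markers, and without it the log2 fold change was 0.26 (unadjusted p 0.0455, edgeR FDR 0.633). Amhr2 lies on chromosome 15 (102445367 to 102454639, plus strand), 1.23 Mb from Acvr1b.

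The remaining receptors overlapped between groups. Acvr1b, the type I receptor of activins (chromosome 15, 101174125 to 101212601, plus strand), ranged from 40.6 to 44.9 CPM in control and from 40.7 to 45.5 CPM in cKO, a log2 fold change of 0.035 (95% interval -0.12 to 0.19, edgeR FDR 0.880). Acvr2b, the second type II receptor of activins (chromosome 9, 119402178 to 119442148, plus strand), ranged from 86.9 to 96.7 CPM in control and from 93.7 to 105 CPM in cKO, a log2 fold change of 0.090 (95% interval -0.059 to 0.24, edgeR FDR 0.623), which was 0.042 without cKO replicate 3 and 0.049 without control replicate 1. Tgfbr3, which encodes betaglycan (chromosome 5, 107106570 to 107289595, minus strand), ranged from 104 to 118 CPM in control and from 108 to 117 CPM in cKO, a log2 fold change of -0.015 (95% interval -0.16 to 0.13, edgeR FDR 0.950). The intervals of these 3 genes were narrow, with no bound beyond 0.24 on the log2 scale in either direction.

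**Figure D3:**
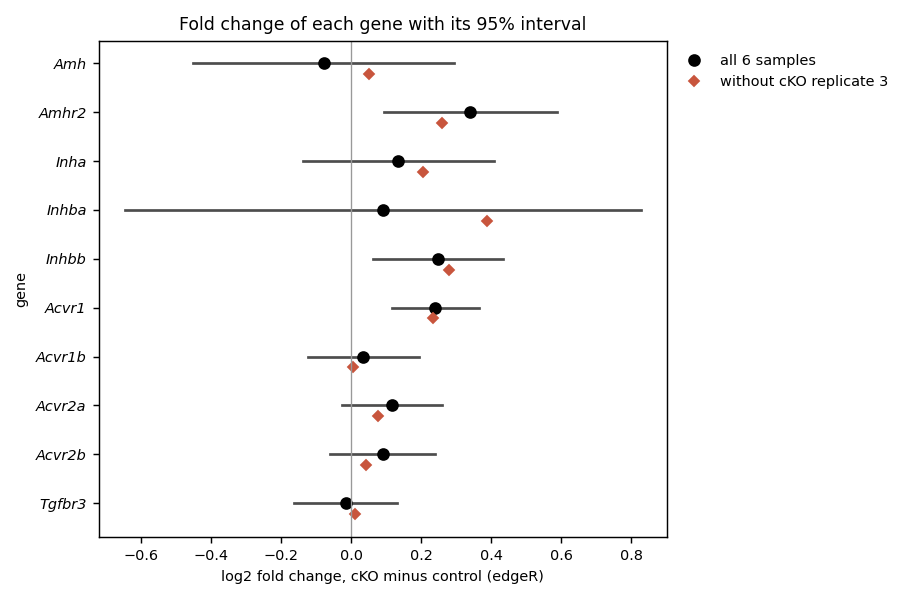
Log2 fold change of cKO against control for the 10 genes (edgeR, black points) with the 95% interval (lines), and the value without cKO replicate 3 (red diamonds). The intervals of Amhr2, Inhbb and Acvr1 lie above 0, none of them passes the adjustment over all genes, and that of Inhba is the widest.

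To compare the balance of ligands, subunits and receptors within a sample, which does not depend on library scaling, ratios of reads per kilobase were formed. The beta B subunit exceeded the beta A subunit in each library, and the size of this ratio depends on the length taken for Inhba. The ratio of Inhbb to Inhba was 19.0, 17.0 and 11.8 in control and 11.2, 19.6 and 30.9 in cKO samples. The mean log2 ratio was 3.97 ± 0.359 in control and 4.24 ± 0.734 in cKO (SD, n = 3, exact permutation p 0.6). With the exons of all annotated transcripts the ratio was 46.8 to 129 over the 6 libraries, with the same difference between groups, and the sign of the difference turned without cKO replicate 3 (-0.078). The alpha subunit was about as abundant as both beta subunits together, with a ratio of 1.11, 1.15 and 1.03 in control and 0.908, 1.16 and 0.981 in cKO samples (exact permutation p 0.4). The difference in its log2 value was -0.12, which became -0.039 without cKO replicate 1 and -0.21 without cKO replicate 2.

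Relative to its receptor transcript, Amh was 7.34, 6.18 and 8.28 times as abundant in control and 5.73, 6.75 and 3.98 times in cKO samples. The difference in the log2 ratio was -0.43 (exact permutation p 0.2), and cKO replicate 2 lay above control replicate 2. It was -0.21 without cKO replicate 3. Relative to Sox9, a Sertoli cell transcription factor that activates Amh, the ratio was 12.0, 9.96 and 12.3 in control and 7.73, 10.7 and 8.31 in cKO samples. The difference in this log2 ratio was -0.37, and the groups overlapped (exact permutation p 0.2). The ratio of Acvr2a to Acvr2b was 0.331, 0.297 and 0.298 in control and 0.314, 0.315 and 0.310 in cKO samples (exact permutation p 0.8). With 3 samples against 3 none of these 5 ratios could reach a p below 0.1.

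**Figure D4:**
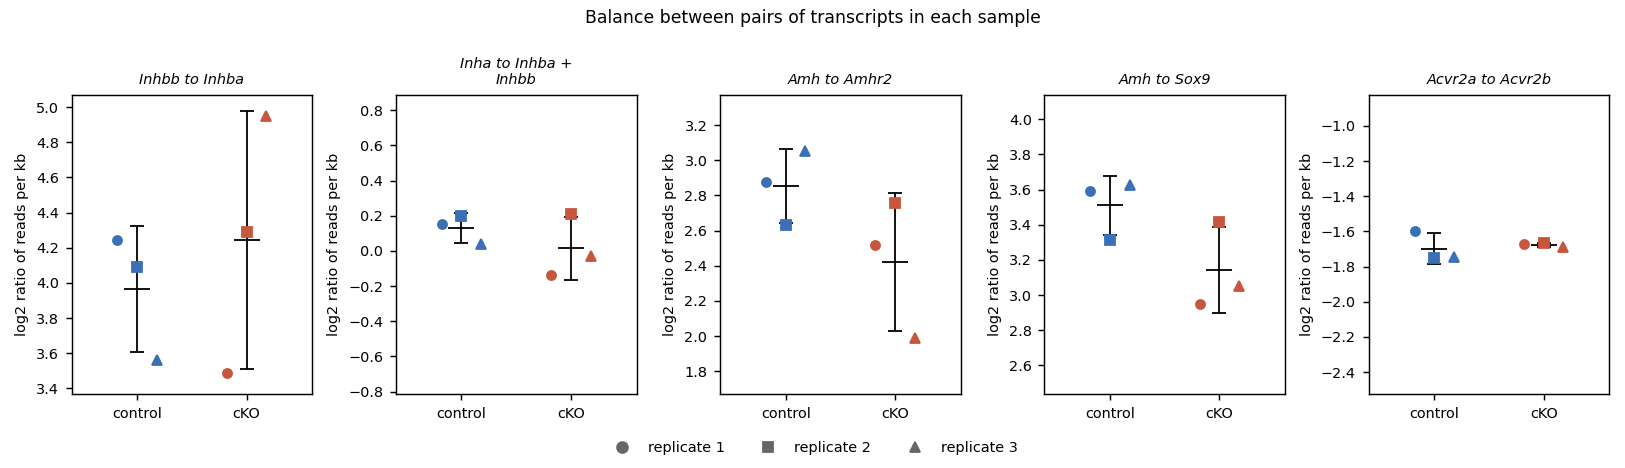
Log2 ratios of reads per kilobase between transcripts in each control and cKO sample, with 1 symbol for each replicate number and black bars for the mean ± SD (n = 3); each axis spans the same range of log2 units but not from 0. The groups overlap in all 5 ratios, and cKO replicate 3 has the highest ratio of Inhbb to Inhba and the lowest ratio of Amh to Amhr2.

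The wider pathway was described with 6 lists holding 52 genes, of which 49 were tested. edgeR called 1 gene, Nr5a1, which rose, and 0 lower. DESeq2 called 4, Nr5a1, Wt1 and Tgfbi higher and Foxh1 lower. With no adjustment, 14 genes were higher and 1 lower at p under 0.05 by edgeR, where the shares of all tested genes were 5.56% and 5.80%. Without cKO replicate 3 the counts were 11 and 1, beside 3.54% and 4.29% of all tested genes. Of the 49 genes, 42 had a log2 fold change above 0, with a median of 0.10, against 49.1% of all tested genes and a median of -0.0034. Without cKO replicate 3 these were 45 of 49, against 48.7% of all tested genes.

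Among ligand traps and related ligands, 3 of 6 genes were tested and all 3 had an unadjusted p under 0.05. Fst encodes follistatin, which binds and neutralises activins. Fst is also among the pre-granulosa markers. It was at 0.800, 1.97 and 0.366 CPM in control and at 2.02, 1.03 and 50.9 CPM in cKO samples, so its log2 fold change of 4.02 rests on cKO replicate 3 and was 0.50 (unadjusted p 0.412) without it. Fstl3, a related activin-binding protein, was at 3.32, 3.64 and 3.66 CPM in control and at 7.50, 4.53 and 4.20 CPM in cKO samples (log2 fold change 0.61, edgeR FDR 0.389). These groups did not overlap, and the log2 fold change was 0.30 (unadjusted p 0.134 by edgeR's fit over all genes) without cKO replicate 1, the highest sample. The TGF-beta family ligand gene Gdf11 had a log2 fold change of 0.26 (edgeR FDR 0.439). Without cKO replicate 3, 1 of the 3 genes, Fstl3, had an unadjusted p under 0.05. Inhbc, Inhbe and Mstn were too low to be tested.

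Among 11 other receptors of the family, 10 had a log2 fold change above 0 and 2 had an unadjusted p under 0.05. Acvr1c, a type I receptor for activin and nodal, was at 11.3, 16.3 and 10.1 CPM in control and at 17.7, 16.5 and 18.4 CPM in cKO samples. Its groups were separate, though cKO replicate 2 and control replicate 2 lay close together (log2 fold change 0.47, SE 0.163, edgeR FDR 0.380), and without control replicate 2 the value was 0.71. The pseudoreceptor gene Bambi had a log2 fold change of 0.19 (edgeR FDR 0.404). It was highest in cKO replicate 3, without which it was at 0.15 (unadjusted p 0.105) and 1 gene of this list, Acvr1c, had an unadjusted p under 0.05. In the list of SMAD proteins and their regulators, 10 of 15 genes had a log2 fold change above 0. Smad5, which carries AMH signals, was at 0.16 (edgeR FDR 0.381) and the inhibitory Smad7 at 0.19 (edgeR FDR 0.439). Smad5 was at 0.13 (unadjusted p 0.0843) without cKO replicate 3, and Smad7 was at 0.096 (unadjusted p 0.238) without control replicate 2.

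Foxh1, a DNA-binding partner of SMAD2 and SMAD3, had the only negative log2 fold change with an unadjusted p under 0.05 in these lists. It was at 11.6, 18.9 and 17.3 CPM in control and at 11.0, 6.14 and 9.19 CPM in cKO samples, without overlap. Its fitted log2 difference was -0.87 (SE 0.226; edgeR FDR 0.377) and DESeq2 called it lower (FDR 0.0109; the edgeR FDR without single samples was 0.161 to 0.702). The germ cell markers summed to 394, 616 and 641 CPM in control and 400.2, 178 and 294 CPM in cKO replicates 1 to 3, so that cKO replicate 2 was lowest for both, and control replicate 1 was lowest among controls for both. Their part in the level of Foxh1 was not tested.

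Of the 4 proprotein convertases, which cleave the ligand precursors, Pcsk6 had a log2 fold change of 0.19 (edgeR FDR 0.377) and none was below 0. Of 8 SMAD target genes, 7 had a log2 fold change above 0, and Tgfbi was at 0.30 (SE 0.0738, edgeR FDR 0.377; DESeq2 FDR 0.0217, edgeR FDR 0.173 to 0.702 without single samples).

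The list of regulators of Amh and Inha transcription held 8 genes, all with a log2 fold change above 0 and 5 with an unadjusted p under 0.05. Nr5a1, a nuclear receptor that activates Amh and Inha, rose from 372, 359 and 311 CPM in control to 512, 593 and 546 CPM in cKO samples, with a log2 difference of 0.66 (SE 0.0801; edgeR FDR 0.0401). The Cre transgene carries Nr5a1 sequences, and counts from the transgene and from the endogenous gene cannot be told apart. The call held without cKO replicate 1 (FDR 0.0295) and was lost without each of the other 5 samples, when the FDR was 0.0731 to 0.212. It was also lost under the stricter filter on low counts (FDR 0.0503) and with the replicate number as a block (FDR 0.267). The call held by DESeq2 (FDR 4.98e-12), limma-voom (FDR 0.0312) and with RLE size factors (FDR 0.0440). It also held with no filter (FDR 0.00519) and in thinned libraries (FDR 0.0212). Without single samples the log2 fold change of Nr5a1 was 0.58 to 0.72. Wt1, a transcription factor of the gonadal soma, had a log2 fold change of 0.28 (edgeR FDR 0.377; DESeq2 FDR 0.0459, edgeR FDR 0.185 to 0.702 without single samples). Sox9 was at 0.28, Zfpm2 at 0.19 and Gata4 at 0.19, each with an edgeR FDR of 0.377 to 0.404. Wt1, Gata4 and Zfpm2 were highest in cKO replicate 3. Without it 4 of the 8 genes had an unadjusted p under 0.05, and the median of the list was 0.21 in place of 0.28. Wt1 was then at 0.20 and Gata4 at 0.15 (unadjusted p 0.104). Beside these values the log2 fold changes of Amh and Inha were -0.078 and 0.13.

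**Figure D5:**
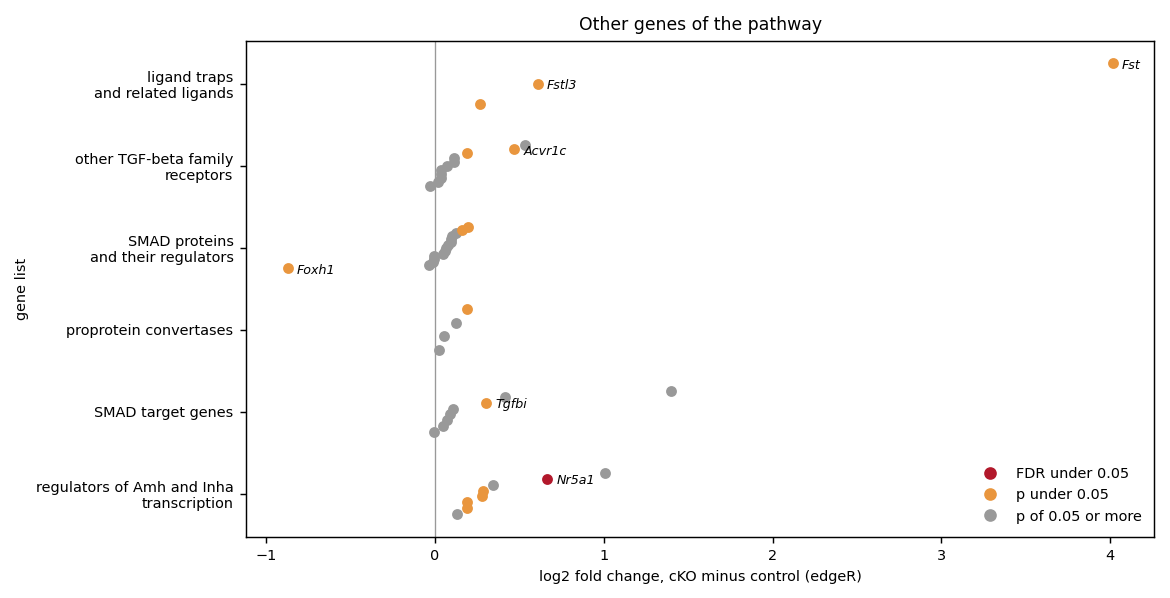
Log2 fold change of cKO against control (edgeR) for the 49 tested genes of 6 pathway lists, with 1 point for each gene, coloured by whether the gene passed an FDR of 0.05, an unadjusted p of 0.05 or neither. Nr5a1 is the 1 gene past the FDR, Foxh1 lies lowest at -0.87, and Fst, at 4.02, rests on cKO replicate 3.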

How the data were processed

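RNA-seq of E12.5 mouse testes was analysed for 3 control and 3 cKO samples, grouped by their titles. The deposited values were raw counts per gene. The authors prepared reverse-stranded mRNA libraries, mapped read pairs to mm10 with STAR (version 2.5 in the submitters' processing notes) and counted them per gene of the RefSeq Curated models with featureCounts (Subread 1.5.0-p1). Coordinates of genes are those of the deposited table.

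Counts were filtered (filterByExpr, minimum count 10), normalised by TMM and tested with the edgeR (4.0.16) quasi-likelihood F-test, and the FDR is the Benjamini-Hochberg adjusted p over 15577 genes. SEs were derived from the F statistic. CPM are library-scaled counts with TMM factors. RPKM used exons of the GENCODE M21 transcripts linked to RefSeq, so their lengths can differ from the models counted. Lengths were found for 23662 of 24470 rows. Ratios were compared by exact two-sided permutation tests. Alternatives were DESeq2 (1.42.0), limma-voom (limma 3.58.1), RLE size factors, no filter, a filter of CPM 1 in 3 samples, a replicate block, thinning to the smallest library and leaving out each sample. The tests were run on simulated data, but with changes larger than the fold changes of this group, so this does not show how well such small changes are found. P-values measure the spread between pooled samples, and depth limits genes of few counts such as Inhba.

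The genes and lists were chosen with earlier results of these data known. Each of the 10 genes is named, with Nr5a1, Sox9 and the list genes that were called, had an unadjusted p under 0.05 or had the lowest p of their list. Protein sequences and the promoters of Amh and Tgfbr3 were not used here.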

Additional observations from a re-analysis of the deposited data

How the results depend on the processing

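No gene of the group was called in any alternative. The count at an unadjusted p under 0.05 was 3 in all alternatives on 6 samples and ranged from 1 to 4 when single samples were left out. The 1 was without control replicate 3, and the 4 without cKO replicate 2, when Amh joined (log2 fold change -0.29, unadjusted p 0.0472, edgeR FDR 0.560). Amhr2, Inhbb, Acvr1, Acvr2a and Acvr2b kept a log2 fold change above 0 in all 13 alternatives. Values near 0 changed sign without single samples: Amh ranged from -0.29 to 0.052, Inha from -0.0038 to 0.24, Inhba from -0.37 to 0.39, Acvr1b from -0.0078 to 0.083 and Tgfbr3 from -0.082 to 0.015. Under the replicate block Inhba was at -0.019. The replicate block changed no call of the 10 genes. Titles share replicate numbers, but deviations from the group mean had correlations of -0.20, -0.27 and -0.13 between samples of 1 number, so the numbers were not treated as pairs.

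The pathway genes called were 4 with DESeq2, 0 with the stricter filter and 0 with the replicate block, under which Nr5a1 was not called (FDR 0.267). They ranged from 0 to 1 without single samples. The cause was not tested. Over all genes, edgeR called 6, DESeq2 111, the replicate block 3 and the stricter filter 4, and 2 to 8 were called without single samples. The difference in log2 ratio of Inhbb to Inhba ranged from -0.078 to 0.66 without single samples. That of Acvr2a to Acvr2b was 0.023, ranged from -0.0040 to 0.074 without single samples and was -0.037 in thinned libraries. The differences, cKO minus control, in the log2 ratios of Amh to Amhr2, of Amh to Sox9 and of Inha to the beta subunits stayed below 0 in every alternative.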

Other observations

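As a description of these 6 samples, the genes whose log2 CPM followed a ligand most closely were listed among 10308 other tested genes with a mean of at least 10 CPM. For Amh these were Efs (Pearson r 0.994), S1pr3 (0.988), Arhgef40 (0.986), Kcp (0.984) and Loxl2 (0.982). Kcp encodes a secreted regulator of bone morphogenetic protein signalling. For Inhbb they were Mtfr1l (0.992), Ctu1 (0.990), Tctn1 (0.988), Adamts9 (0.988) and Aff1 (0.982). All values share the same 6 libraries and their depth, and the genes were picked for the highest r.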
